A study of Hakea prostrata with 26 samples.

Results

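Gene expression was compared between white roots and mature leaves of hydroponically grown Hakea prostrata, a Proteaceae shrub native to phosphorus-poor soils in south-western Australia. The comparison holds 6 of the 26 RNA-seq libraries of the study, chosen by their labels: 3 of white root and 3 of mature leaf, with 1 library of each organ at 1, 10 and 50 uM phosphate (Pi). The labels state that no replicates were made of these treatments, and they give no plant age, no harvest time and no number of plants per library. They do not say whether the root and the leaf at a Pi level came from the same plant. The 3 libraries of an organ therefore differ in Pi. Every SD and permutation p-value for this pair of organs measures the spread over Pi levels and between libraries together. The main edgeR tests took out a trend with log10 Pi common to both organs. Their p-values measure the spread around that trend, in which Pi levels and libraries are still mixed. The other 20 libraries, used here only to place the result, are 5 of cluster root (days 0, 1, 4, 7 and 12, hydroponics) and 15 of leaves of plants in the field (stages 1, 2, 3, 4 and M, 3 replicates each; the labels do not define stage M).

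A mature leaf is specialised for photosynthesis, and in green leaves of many plants a few messages for photosynthetic proteins make up a large part of the messenger RNA. A root takes up water and mineral nutrients and holds growing tips, hairs, transport tissue and storage tissue side by side. Hakea makes ordinary roots and, when phosphate is scarce, cluster roots, dense groups of rootlets that release carboxylates. In whole organs, fewer cells of a type and less RNA per cell cannot be told apart.

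The deposited table holds estimated counts for 51697 assembled transcripts of 25047 genes, named by Trinity assembly IDs. An ID has a gene part and, after the letter i, an isoform part, and 11687 genes had several isoforms. The files pair no ID with a gene name, so no function can be given for any transcript, and the lists of leaf and root marker genes could not be applied. The organ labels were therefore compared with the other tissues. For correlations between libraries, log2 CPM (counts per 1e6 of the library) was taken across transcripts without TMM scaling. The mature leaf libraries correlated at r = 0.741 to 0.821 with wild leaf stage M and at 0.570 to 0.633 with cluster root. The white root libraries correlated at 0.778 to 0.912 with cluster root and at 0.552 to 0.579 with wild leaf stage M. White root at 1 uM Pi had the highest of these values with a cluster root library (0.912), above its correlation with the other white roots (0.883 and 0.888).

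Totals were 11508234, 11508234 and 9486439 estimated counts in white root and 20283815, 17130939 and 17502190 in mature leaf at 1, 10 and 50 uM Pi. The equal totals at 1 and 10 uM did not mark the same data, since 90.9% of the values differed between these libraries, much as for the other white root pairs (91.2% and 88.9%). Values of exactly 1 were found 675, 1002 and 1063 times in white root at 1, 10 and 50 uM, and whole numbers made up 30.9, 32.1 and 31.6% of the values above 0. Whole numbers were thus about equally common in the white root libraries, but values of exactly 1 were fewest at 1 uM. Mature leaf held 189, 173 and 137 values of exactly 1 at 1, 10 and 50 uM, and 37.1 to 38.7% whole numbers. The reason for the equal totals is not known, and whether a white root column was rescaled was not tested. Libraries of 1 organ correlated at 0.883 to 0.925 (white root) and 0.857 to 0.906 (mature leaf), and libraries of different organs at 0.601 to 0.622. The first principal component of log2 CPM held 72.8% of the variance and separated the organs without overlap. The second held 11.7% and set mature leaf at 50 uM Pi apart from mature leaf at 1 uM.

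White roots expressed more transcripts and spread their counts over more of them than mature leaves did. At least 1 count was found for 44424, 42826 and 43326 transcripts in white root at 1, 10 and 50 uM Pi and for 33566, 33088 and 33127 in mature leaf. Every white root library lay above every mature leaf library, although mature leaf had the higher depth. With all libraries thinned to the lowest total, 43361 ± 828 transcripts were detected in white root and 32946 ± 162 in mature leaf (SD, n = 3; exact two-sided permutation test, p = 0.1, the smallest p that 3 libraries against 3 allow). Summed over isoforms, 22852 to 23232 genes were detected in white root and 18711 to 18888 in mature leaf.

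The counts of mature leaf were concentrated on few transcripts. The most abundant transcript held 3.79, 4.33 and 3.89% of the counts in mature leaf at 1, 10 and 50 uM Pi, against 0.362, 0.461 and 0.379% in white root. The 10 most abundant held 10.1, 9.88 and 7.73% in mature leaf and 2.47, 2.81 and 2.58% in white root. In mature leaf 978, 1110 and 1324 transcripts together held 50% of the counts, where white root needed 2698, 2075 and 2453. None of these measures overlapped between the organs (exact permutation test, p = 0.1 for each, again the smallest possible). In mature leaf the concentration was highest at 1 uM Pi and lowest at 50 uM for the 10 and the 100 most abundant transcripts, with 1 library per level and no test.

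**Figure D1:**
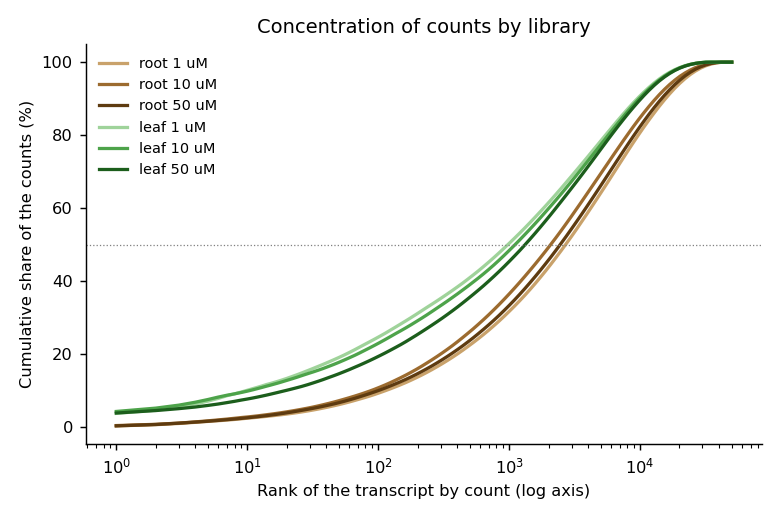
Cumulative share of a library's counts (%) against the rank of the transcript by count (log axis), 1 line per library, for white root (brown) and mature leaf (green) at 1, 10 and 50 uM Pi; the dotted line marks 50%. The mature leaf lines start at 3.79 to 4.33% and cross 50% between 978 and 1324 transcripts, to the left of all white root lines.

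Summed over isoforms, 50.9% of the tested genes differed between white root and mature leaf. Of 19418 genes, 9892 had an adjusted p under 0.05 (edgeR, quasi-likelihood F test, Benjamini-Hochberg adjustment), with 5482 (28.2%) higher in white root and 4410 (22.7%) higher in mature leaf. Among those that passed, a difference of 4-fold or more was found for 3654 in favour of white root and 2313 in favour of mature leaf, and of 16-fold or more for 2079 and 1003. The median log2 fold change, white root over mature leaf, was 3.02 for the genes higher in white root and -2.10 for those higher in mature leaf, and both were the same with genes at 0 set to their bound. CPM ranges did not overlap for 12748 genes, 65.7% of those tested. Of these, 3061 did not pass.

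The balance between the organs moved with the scaling and with single libraries. With TMM, which scales libraries on the bulk of genes, tested genes had a median log2 fold change of 0.28. All 5482 genes higher in white root lay above that median. The 4410 higher in mature leaf lay below it by definition, since the median was above 0. With total counts alone the median was 0.90, and 8193 genes were higher in white root and 2859 in mature leaf (74.1% against 55.4% higher in white root). Leaving out white root at 10 or 50 uM Pi lowered the genes higher in white root from 5482 to 3324 or 3495. Against these stood 3550 and 3418 genes higher in mature leaf, so that without white root at 10 uM the majority turned to mature leaf (48.4% higher in white root). The genes at least 4-fold higher in white root then numbered 2231 and 2343, against 3654.

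Among genes at least 4-fold apart, the most abundant in mature leaf was TRINITY_DN850_c0_g1, with 3 isoforms. It stood at 49438, 53268 and 47114 CPM in mature leaf at 1, 10 and 50 uM Pi and at 23.0, 42.7 and 34.6 CPM in white root. It took 3.81, 4.34 and 3.92% of all mature leaf counts at these levels. The 2 groups were far apart, 1511-fold in pooled counts (log2 fold change -10.56, SE 0.55; edgeR, adjusted p = 4.5e-05). The second in mature leaf, TRINITY_DN4294_c0_g2, stood at 10051, 11195 and 8101 CPM there and at 3.30, 9.87 and 1.43 CPM in white root. White root at 10 uM Pi was the highest of its low group, and the fold rose from 1980 to 3961 without it (log2 fold change -10.97, SE 0.95; edgeR, adjusted p = 0.000201).

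The white root counterparts were lower in level and less far apart. TRINITY_DN994_c0_g2, with 2 isoforms, stood at 2782, 3207 and 3208 CPM in white root at 1, 10 and 50 uM Pi and at 200.2, 236 and 219 CPM in mature leaf. Its values were tight in both organs, and they differed 14.0-fold (log2 fold change 3.81, SE 0.27; edgeR, adjusted p = 9.69e-05). TRINITY_DN3919_c2_g1, with 3 isoforms, stood at 2610, 2851 and 1896 CPM in white root and at 35.3, 29.9 and 75.1 CPM in mature leaf. The highest mature leaf value, at 50 uM Pi, was far under the lowest white root value (53.0-fold; log2 fold change 5.78, SE 0.49; edgeR, adjusted p = 0.000192).

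**Figure D2:**
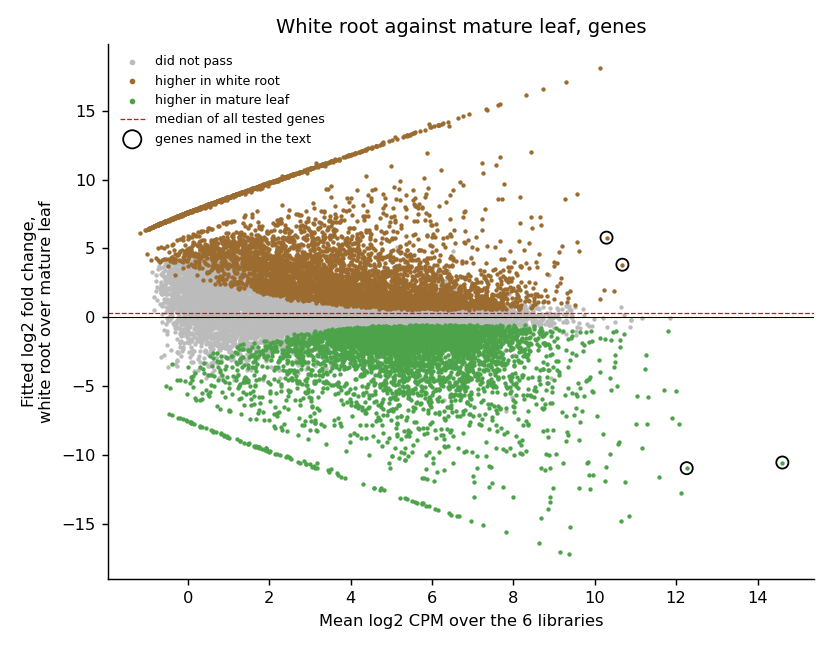
Fitted log2 fold change of each tested gene, white root over mature leaf, against its mean log2 CPM over the 6 libraries. Brown points (5482) passed as higher in white root and green points (4410) as higher in mature leaf, grey points did not pass, the dashed line is the median of all genes (0.28) and circles mark the 4 genes named in the text; the straight outer edges are genes at 0 in all libraries of an organ, whose fitted values are no bounds.

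The 4 genes behaved differently in the tissues that had not been used to choose them. On a scale common to all 26 libraries, TRINITY_DN850_c0_g1 stood between 15.2 and 35.9 CPM in cluster root, between 2624 and 2899 in stage 1 leaves and between 20014 and 28858 in stage M leaves. TRINITY_DN4294_c0_g2 stood between 0.762 and 6.38 CPM in cluster root, between 4089 and 6212 in stage 1 leaves and between 7541 and 8989 in stage M leaves. Both were thus high in every wild leaf and low in every cluster root library. The white root genes were not low in wild leaf. TRINITY_DN994_c0_g2 had 1030 to 1255 CPM in stage 1 leaves and 2735 to 4678 in stage M leaves, where white root had 2386 to 2898 and hydroponic mature leaf 174 to 200 on this scale. TRINITY_DN3919_c2_g1 had 700.4 to 950.1 CPM in stage 1 leaves and 1115 to 8054 in stage M leaves, against 1624 to 2577 in white root and 25.4 to 61.1 in hydroponic mature leaf. For these genes the hydroponic mature leaf was the low tissue, and all other libraries were above it. Field and hydroponic leaves differ in growth site and plants, and these cannot be told apart.

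**Figure D3:**
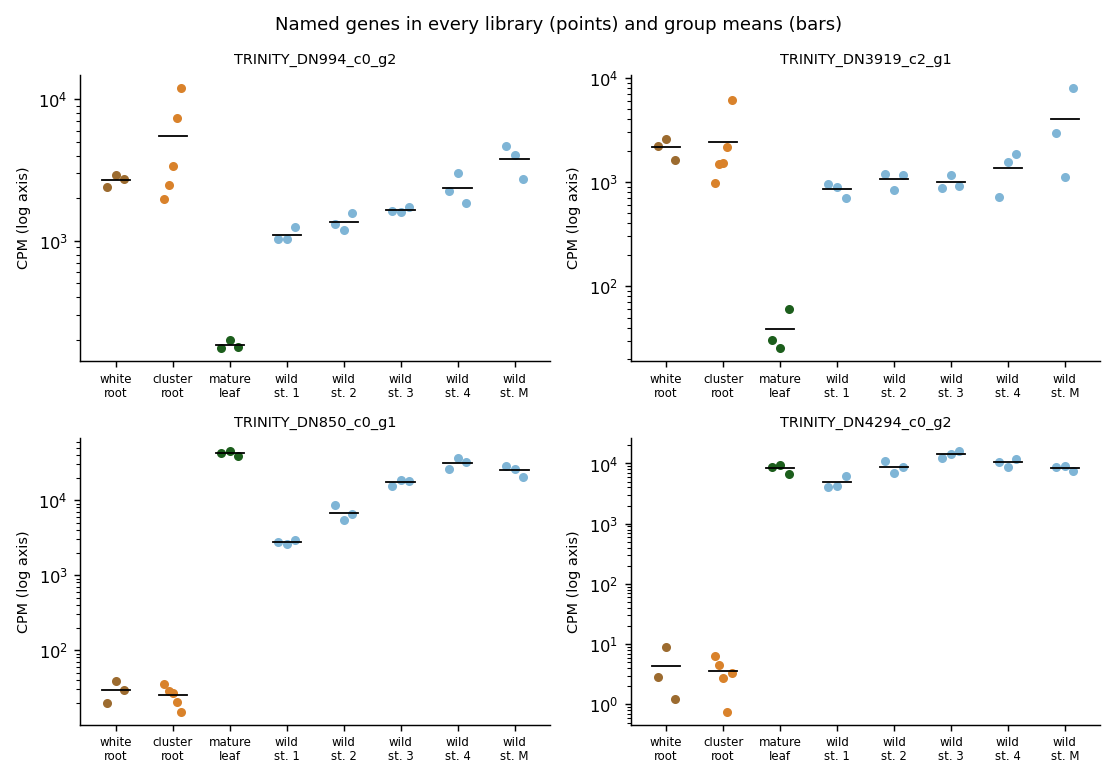
CPM (log axis, scaled over all 26 libraries) of the 4 named genes in every library (points), with group means (bars), for white root, cluster root, hydroponic mature leaf and wild leaf stages 1 to M. The upper pair, higher in white root, is low in hydroponic mature leaf alone, and the lower pair is low in both kinds of root.

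At the level of single transcripts 35% of those tested differed: 12752 of 36407 passed, 7007 (19.2%) higher in white root and 5745 (15.8%) higher in mature leaf (edgeR, adjusted p under 0.05). In this test the count and its balance were less firm than for genes. With Pi level as a factor, so that libraries were paired by level, 7114 transcripts passed, of which 3026 (42.5%, against 54.9%) were higher in white root. With total counts alone 71.6% were higher in white root. Leaving out 1 library gave 8101, 5307 and 5854 transcripts (white root at 1, 10 and 50 uM Pi) and 7487 and 7675 (mature leaf at 1 and 10 uM). Without any of the 3 white root libraries the majority turned to mature leaf, with 43.7, 37.0 and 41.7% higher in white root. Transcripts called at least 4-fold apart numbered 5715 (15.7% of those tested) for white root, named root-preferring below, and 3963 (10.9%) for mature leaf, named leaf-preferring. The size of the root-preferring list moved with single libraries: it was 2749, 1579 and 1976 without white root at 1, 10 and 50 uM Pi, 3506 and 3763 without mature leaf at 1 and 10 uM, and 2459 with Pi level as a factor. CPM ranges of the organs did not overlap for 60.7% of the tested transcripts. The log2 fold changes nearest the 4-fold threshold were 2.0004 inside and 1.9992 outside it for white root, and 2.0012 and 1.9997 in size for mature leaf.

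The root-preferring transcripts were rarer messages than the leaf-preferring ones. Their median mean log2 CPM over the 6 libraries was 2.38, against 4.48 for the leaf-preferring and 2.95 for all tested transcripts, with no correction for length. That mean includes the organ in which a list is low by its choice. Within white root the median was 7.75 to 8.01 CPM for the root-preferring and 5.32 to 6 CPM for all tested transcripts, so the root-preferring were not rare there. Within mature leaf it was 29.4 to 36.5 CPM for the leaf-preferring and 4.52 to 4.67 CPM for all tested transcripts. Of the root-preferring transcripts 2726 had 0 counts in all mature leaf libraries, and 460 of the leaf-preferring had 0 in all white root libraries. Such transcripts passed the filter on low counts through the other organ alone. Genes with a single isoform gave 27.3% of the root-preferring, 21.1% of the leaf-preferring and 23.5% of all tested transcripts.

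Many transcripts with sizeable counts in an organ were not detected in the other. In all, 2023 transcripts had 0 counts in the 3 mature leaf libraries and at least 100 in white root together, and 707 had 0 in white root and at least 100 in mature leaf. With all libraries thinned to the lowest total the counts were 1881 and 497. For most of them the gene itself was detected through another isoform: only 639 of the 2023 and 135 of the 707 belonged to a gene at 0 in the same organ.

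The transcripts of white root with the largest differences belonged to genes with no count in mature leaf. TRINITY_DN185839_c0_g1_i1, the only isoform of its gene, stood at 698, 937 and 951 CPM in white root at 1, 10 and 50 uM Pi and at 0 counts in mature leaf. Against 3 counts over the mature leaf libraries it was at least 12525-fold higher in white root (8241-fold, 8553-fold and 8258-fold without mature leaf at 1, 10 and 50 uM, where fewer counts stand behind the bound; edgeR, adjusted p = 0.00133). On the scale common to all 26 libraries it ran from 205 to 365 CPM in cluster root and from 612 to 820 CPM in white root. Of the 15 wild leaf libraries 14 were at 0. TRINITY_DN1703_c0_g1_i18 stood at 459, 1159 and 570 CPM in white root and at 0 counts in mature leaf, at least 10617-fold higher (6985-fold and 7000-fold without mature leaf at 1 and 50 uM; edgeR, adjusted p = 0.00393). Its gene, with 3 isoforms, had 0 counts in mature leaf as well.

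The 2 leaf transcripts named by the same rule came from genes that white root did express, by other isoforms. With 2 transcripts per direction, this sets no rule apart for either organ. Among all transcripts at 0 in an organ and with at least 100 counts in the other, most belonged to detected genes in both directions (1384 of 2023 and 572 of 707). TRINITY_DN850_c0_g1_i13 stood at 50916, 52903 and 45295 CPM in mature leaf and had 0, 0 and 2 counts in white root at 1, 10 and 50 uM Pi. The pooled ratio was 982842-fold (95% counting interval 272078 to 8115645; 612703-fold without white root at 1 uM Pi, and at least 461514-fold without that at 50 uM; edgeR, adjusted p = 0.00093). White root counts of that gene came from another isoform, TRINITY_DN850_c0_g1_i5, which held 91.6% of them against 0.518% in mature leaf. TRINITY_DN3177_c0_g1_i21 stood at 4880, 4318 and 3223 CPM in mature leaf and had no count in white root, at least 54616-fold higher in mature leaf (34047-fold without white root at 1 uM; edgeR, adjusted p = 0.00133). Its gene had 760 counts in white root, all from other isoforms, and a log2 fold change of -7.75 (SE 0.39). Counting intervals and bounds cover counting error only.

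Different isoforms led in the organs for a part of the genes. Of 8702 genes with several tested isoforms, 3077 (35.4%) differed in isoform shares (edgeR's diffSpliceDGE, adjusted p under 0.05; 1649 and 1715 without white root at 10 and 50 uM Pi). On simulated data this test gave more wrong calls than its threshold allows, and the deposited counts carry no error for the split of reads between isoforms. Of 6151 genes with several isoforms and at least 100 counts in each of the 6 libraries, 3611 (58.7%) had the same leading isoform in all 6. The leading isoform differed between the organs at every Pi level in 856 (13.9%), of which 587 passed the test of isoform shares. Of the 856, 564 had a fixed isoform for each organ, and these were chosen without regard to that test. Isoforms of 1 gene moved in opposite directions, both passing, in 565 of the 6168 genes with several isoforms and at least 1 transcript that passed (9.16%). Of the 565, 267 did not pass the test in summed counts, while 239 were higher in mature leaf and 59 in white root.

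The genes with the largest change in the share of an isoform exchanged it almost wholly. In TRINITY_DN798_c0_g1, of 2 isoforms, i1 held 100, 99.97 and 100% of the gene's counts in white root at 1, 10 and 50 uM Pi and 0% in mature leaf, where i17 held 100% at all levels (diffSpliceDGE, adjusted p = 2.01e-05). The gene itself had 3524, 10679 and 5098 counts in white root and 21789, 15058 and 8183 in mature leaf, a difference that did not pass (log2 fold change -0.99, SE 0.54; edgeR, adjusted p = 0.166). Cluster roots used i1, with at most 0.0173% of i17. Wild leaves used i17, at 99.1 to 100%. In TRINITY_DN1180_c1_g1, with 5 isoforms, i26 held 99.97 to 100% in white root and 0% in mature leaf (diffSpliceDGE, adjusted p = 5.3e-07). Isoforms i17 and i1 held 78.2 and 11.6% in mature leaf at 1 uM Pi, 69.5 and 18.4% at 10 uM and 34.5 and 49.1% at 50 uM, so that the leading leaf isoform was another at 50 uM. The difference in its summed counts did not pass (log2 fold change -1.26, SE 0.99; edgeR, adjusted p = 0.318).

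The 564 genes with a fixed leading isoform in each organ were followed into the libraries that had not chosen them, counting genes with at least 20 counts. In cluster root, the white root isoform led in 86.2, 87.9, 86.9, 83.5 and 76.3% of genes on days 0, 1, 4, 7 and 12, and the mature leaf isoform in 11.5, 8.87, 9.04, 11.5 and 17.4%. In wild leaf stage M the mature leaf isoform led in 65.1 to 67.5% and the white root isoform in 24.4 to 27.0%. Stage 1 leaves lay between these, with the white root isoform leading in 50.2 to 50.8% and the mature leaf isoform in 41.5 to 42.8%. The ranges of stages 1 and M did not overlap. The share of genes led by the white root isoform was thus lower in stage M leaves than in stage 1 leaves of the field plants.

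**Figure D4:**
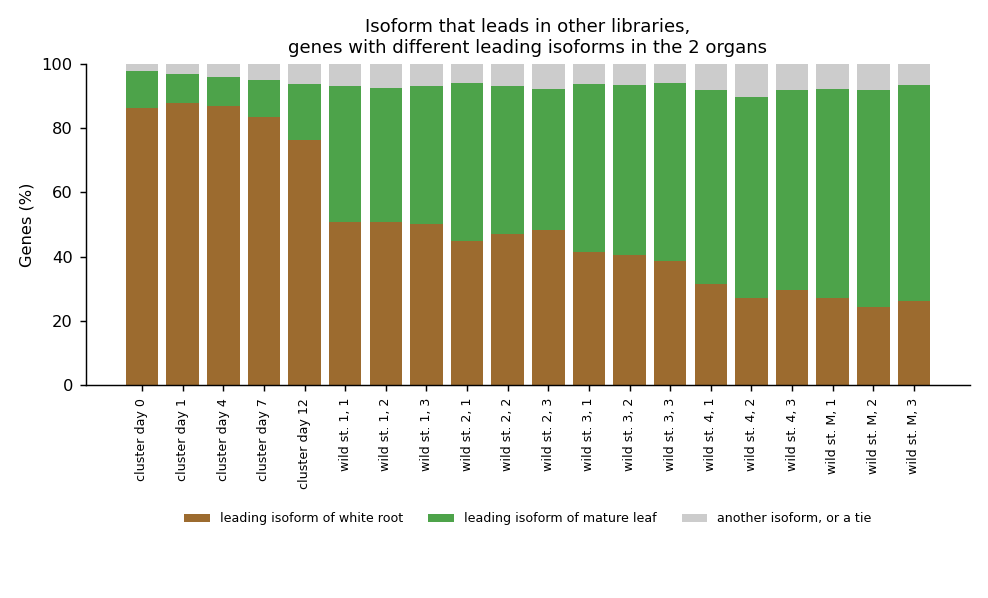
For genes whose leading isoform was fixed in each organ and differed between white root and mature leaf (564 genes, those with at least 20 counts in a library), the share of genes (%) in which the white root isoform (brown), the mature leaf isoform (green) or another isoform (grey) led, 1 bar per cluster root or wild leaf library. The brown share is 76.3 to 87.9% in cluster root, 50.2 to 50.8% at wild leaf stage 1 and 24.4 to 27.0% at stage M.

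The organ difference was also looked for in libraries that the comparison did not use, cluster root against wild leaf stage M (5 and 3 libraries). Root type, growth site and organ cannot be told apart in that contrast, in which 32.3% of 34516 tested transcripts were higher in cluster root and 16% higher in wild leaf (edgeR, adjusted p under 0.05). Of the 6366 white root transcripts tested there, 4149 (65.2%) were higher in cluster root and 76 (1.19%) higher in wild leaf. Of the 5176 mature leaf transcripts, 3392 (65.5%) were higher in wild leaf and 135 (2.61%) higher in cluster root. The shared transcripts made up 37.2% of all those higher in cluster root and 61.3% of all those higher in wild leaf. With wild leaf stage 1 in place of stage M, a contrast in which 18.4% of all 36362 tested transcripts were higher in cluster root and 13.1% in wild leaf, the shares were 36.6% (2389 transcripts) and 42.2% (2106).

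The levels of the root-preferring transcripts were followed into the other tissues. Mean CPM in cluster root was at least 0.25 times the white root mean for 94.3% of them, where 95.7% of all tested transcripts met this. In wild leaf stage 1 it was so for 60.1% (83.3% of all tested) and in stage M for 23.7% (64.3%). Their summed counts made up 21.5, 23.0 and 22.3% of the white root libraries, 1.20, 1.18 and 1.41% of mature leaf at 1, 10 and 50 uM Pi, 19.8 to 23.1% of cluster root, 11.7 to 12.6% of stage 1 leaf and 2.79 to 4.16% of stage M leaf. In all, 451 of the 5715 (7.89%) had no count in any wild leaf library, while 272 (4.76%) stood in stage M leaf at or above their white root mean. For these counts the shares over all tested transcripts are not given, so neither can be called high or low.

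The leaf-preferring transcripts took 51.7, 48.4 and 38.0% of the counts of mature leaf at 1, 10 and 50 uM Pi and 3.22 to 3.96% of white root, as follows from their choice. In cluster root they took 3.52 to 4.58%. Their mean CPM there reached 0.25 times the mature leaf mean for 9.56% of them, against 82.6% of all tested transcripts. At wild leaf stage 1 it did so for 46.4% and at stage M for 81.3% (82.3 and 75.0% of all tested). Low levels of these transcripts were thus common to white root and cluster root, and stage 1 leaf lay between the roots and stage M leaf.

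**Figure D5:**
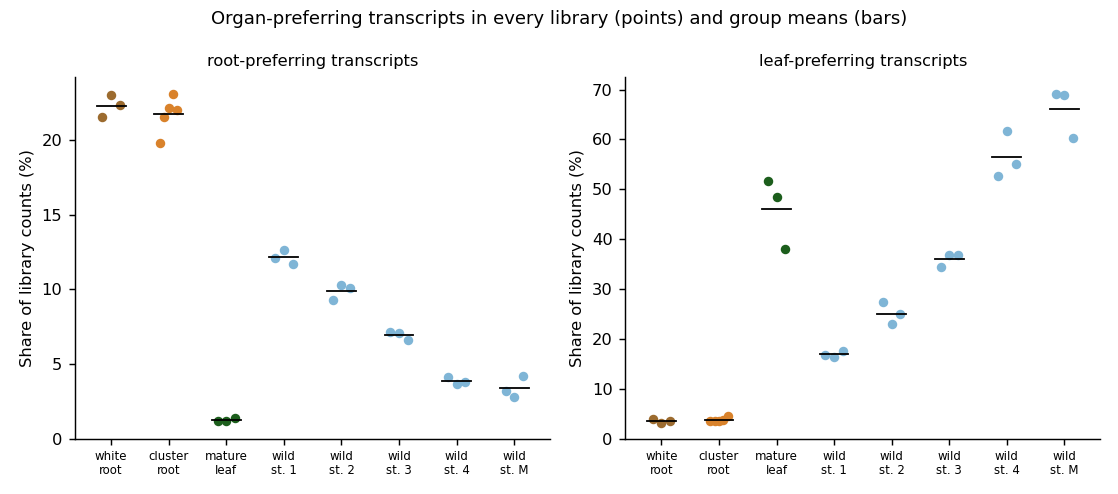
Share of a library's counts (%) held by the 5715 root-preferring (left) and 3963 leaf-preferring transcripts (right) in every library (points), with group means (bars). The lists were chosen on the white root and mature leaf points; cluster root lies at 19.8 to 23.1% and 3.52 to 4.58%, wild leaf stage 1 at 11.7 to 12.6% and 16.4 to 17.5%, and stage M at 2.79 to 4.16% and 60.2 to 69.2%.

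The organ difference was of similar size at each Pi level. Between the 2 libraries of a level, the median absolute difference in log2 CPM was 1.70, 1.79 and 1.84 at 1, 10 and 50 uM Pi. Transcripts at least 4-fold higher in white root numbered 10929, 10707 and 11237 of 36407, and those at least 4-fold higher in mature leaf 5439, 6209 and 5899. The differences at a pair of levels, which share no library, correlated across transcripts at r = 0.727 to 0.781. A 4-fold difference held at all 3 levels for 6154 transcripts in favour of white root (16.9%) and 3421 in favour of mature leaf (9.40%), and 1030 (2.83%) were 4-fold apart in opposite directions at different levels. Within an organ, libraries at different Pi levels were 4-fold apart for 6.18 to 9.51% of transcripts in white root and 16.3 to 22.7% in mature leaf.

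No transcript passed the test of whether the organ difference moved with log10 Pi (edgeR, smallest adjusted p = 0.397), while 4215 of 36407 (11.6%) had an unadjusted p under 0.05. DESeq2's Wald test called 830. For summed genes edgeR called 0 of 19418, with a smallest adjusted p of 0.0541 and 2315 (11.9%) under 0.05 unadjusted. With 2 residual degrees of freedom, organ differences that change with Pi were not excluded by this test.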

How the data were processed

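Per the labels' protocols, stranded libraries were made from total RNA depleted of plant ribosomal RNA. The authors deposited estimated counts per assembled transcript. Per the submitters' processing notes the tools were DESeq2 1.30.1, Trim Galore 0.6.6 and kallisto, whose version is not stated; what each did is not recorded there. How the transcripts were assembled, stranded or filtered is not given in the sources used here. From 39.4 to 59.5% of a library's values were not whole, and values were rounded before all tests. Isoforms share reads, so values of single isoforms are uncertain.

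Software was edgeR 4.0.16, DESeq2 1.42.0 and limma 3.58.1 under R 4.3.3. For the 6 libraries, filterByExpr by organ (at least 10 counts, total of at least 15) and TMM scaling preceded a robust quasi-likelihood fit in edgeR with organ and log10 Pi as terms, leaving 3 residual degrees of freedom. CPM values are TMM-scaled, except in the correlations between libraries, which used library totals alone. Genes are sums over isoforms of a Trinity gene. A standard error is the size of the log2 fold change divided by sqrt(F). Correlations and Pi level differences used log2 CPM with a prior count of 2. Bounds set an organ at 0 to 3 counts over its libraries, and the counting interval is exact binomial at 95%. Thinning was binomial and seeded. The transcript and isoform tests were run on simulated data. Of 50 transcripts changed at each of 2-, 4-, 16- and 64-fold, 0, 7, 21 and 33 were called, along with 4 unchanged ones. The isoform test called 115 of 200 changed genes and 22 unchanged ones. Far fewer of the 36407 simulated transcripts were changed than the 35% called in the data, so these shares need not hold for the data.

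Named transcripts differ most in log2 fold change among those that passed, with mean log2 CPM 2 or more and organ ranges that do not overlap. Named genes have the highest mean CPM in their organ among those also at least 4-fold apart. Named isoform genes have the largest change in share. At most 2 per direction are given, since no ID has a name. Members, lists and rules were chosen with earlier results of these data known. The alternatives are given in the closing section.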

Additional observations from a re-analysis of the deposited data

Results flagged for a closer look

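Among the 5 cluster root libraries, day 12 stood apart from the others in the share of counts held by leaf-preferring transcripts (4.58%, against 3.52 to 3.68% on days 0 to 7) and in TRINITY_DN3919_c2_g1 (6065 CPM, against 973 to 2153). They were marked by Dixon's test at its 95% level, which by its definition marks about 1 in 20 groups by chance. The number of groups screened is not given here, so no number to be met by chance can be set beside these. The cluster root libraries are different days and not replicates, so the test cannot tell a change over days from an outlier. Day 12 is also the last day sampled, with 1 library.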

How the results depend on the processing

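Alternatives were recomputed for 31 results, 387 values in all. Of these, 330 kept their direction and side of the threshold, or stayed within 1.5 times of the count or the spread between libraries. The number marked as reversed was 0, but counts of features and p-values have no direction, so only the named log2 fold changes could reverse. Which organ held the majority of calls was not scored, and it turned to mature leaf under several alternatives. Whether the root and the leaf of a level came from the same plant cannot be told from the counts. Paired by Pi level, their deviations from organ means correlated across transcripts at r = 0.028, 0.011 and 0.048 at 1, 10 and 50 uM. With this replicate block (Pi level as a factor) transcripts that differed fell from 12752 to 7114, those higher in white root to 3026 and those at least 4-fold higher there to 2459, while genes stayed at 8368 against 9892 and isoform genes at 2377 against 3077. DESeq2's Wald test gave 19233 transcripts, 11624 higher in white root and 8902 at least 4-fold higher there, and 830 for organ by Pi. Without both libraries at 1 uM Pi the transcripts numbered 3166 (1134 white root, 2032 mature leaf; at least 4-fold 1124 and 2020). Without those at 50 uM they numbered 5219 (2152 and 3067; 1984 at least 4-fold in white root). Without those at 10 uM there were 0, 0 and 0, with an adjusted p of 0.0502 (edgeR) for all 4 named transcripts, whose calls held in the other 18 of 19 alternatives. These fits have 4 libraries and 1 residual degree of freedom. Genes higher in mature leaf fell to 2859 with total counts alone, chosen after seeing the data.

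Leaving out 1 library gave 5307 to 10272 transcripts, 1964 to 5419 higher in white root, 3343 to 4853 higher in mature leaf, and 1579 to 4650 and 2758 to 3658 at least 4-fold. It gave 6874 to 9813 genes, 3324 to 5355 higher in white root, 3418 to 4458 higher in mature leaf, and 2231 to 3917 and 2104 to 2475 at least 4-fold. It gave 1649 to 2887 isoform genes, 0 for organ by Pi, 13455 to 15777 transcripts between cluster root and stage M, and 3267 to 3921 and 3104 to 3356 of these shared with white root and mature leaf. Shared transcripts fell to 2389 and 2106 with wild leaf stage 1, an alternative added after seeing the data. Detected transcripts numbered 35289 in white root and 29476 in mature leaf at 10 counts, and 32946 in mature leaf when thinned. The 10 most abundant held 3.07% in white root when isoforms were summed. Except where stated, the cause of a change was not tested.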
